A study of Mus musculus with 8 samples.

Results

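The receptors and carriers through which tissue senses and takes up short-chain fatty acids, lactate and related hydroxy acids were examined in visceral white adipose tissue (vWAT) of KIKO mice. The group holds 8 genes of the 31053 in the count table, chosen by gene symbol, with earlier results of these data already known. It comprises 5 receptors (*Ffar2*, *Ffar3*, *Ffar4*, *Hcar1* and *Hcar2*) and 3 carriers (*Slc16a1*, *Slc16a7* and *Slc5a8*). Transcripts of 6 of the 8 genes were detected, in all 8 mice, and *Ffar3* and *Slc5a8* had no count in any mouse. None of the 6 passed the test for a difference between genotypes, which 0.677% of all tested genes passed, and the largest differences were those of *Hcar1* and *Hcar2*, whose mean levels were 1.45-fold and 1.46-fold of the WT mean by the fitted values.

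RNA was taken from vWAT, which the sample titles call epididymal, of 4 WT and 4 KIKO male C57BL/6 mice aged 8 months, with 1 library per mouse. KIKO mice are a combined knock-in and knock-out model of Friedreich's ataxia, and WT littermates were the controls. No treatment is given for these mice, and the study's mice fed butyrate were not analysed here. The comparison asks whether adipose tissue of this model differs in the genes through which butyrate and lactate could act on it.

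Short-chain fatty acids such as acetate, propionate and butyrate are made by gut bacteria from fibre. *Ffar2* and *Ffar3* encode G protein-coupled receptors for them. *Hcar1* encodes the lactate receptor, and *Hcar2* the receptor for niacin, the ketone body beta-hydroxybutyrate and butyrate. In adipocytes, both hydroxycarboxylate receptors couple to the inhibitory G protein, lower cyclic AMP and so restrain lipolysis. *Ffar4* encodes a receptor for long-chain fatty acids, so it is not a short-chain receptor although it belongs to the same group of names. *Slc16a1* and *Slc16a7* encode the proton-coupled monocarboxylate carriers MCT1 and MCT2, which move lactate, pyruvate, ketone bodies and short-chain fatty acids across membranes. *Slc5a8* encodes a sodium-coupled carrier of the same acids, best known from colon and kidney.

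Sequence before the transcription start was taken from RefSeq (GRCm38.p6) for the members on which the results turn. The table holds 6 of the 8 members, and *Hcar2* and *Slc16a7* are named only. For *Ffar2* it lists 4 starts, of which the one farthest upstream was used. *Ffar2* and *Ffar3* are shown because they lie on the same strand of chromosome 7 with 30554 bases between them, one detected and the other not. *Hcar1* is shown as the member with the smallest p between genotypes, and *Slc16a1* as the carrier with the most counts. Each line holds the 250 bases before the start, 5′ to 3′ on the strand of the gene, with matches to the searched motifs in capitals.
Ffar2, chr7:30823776-30824025, minus strand: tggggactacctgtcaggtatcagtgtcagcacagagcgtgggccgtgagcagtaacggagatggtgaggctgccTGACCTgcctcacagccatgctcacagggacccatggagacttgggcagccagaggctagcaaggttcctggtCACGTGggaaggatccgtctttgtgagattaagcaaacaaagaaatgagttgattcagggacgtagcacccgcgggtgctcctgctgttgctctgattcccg
Ffar3, chr7:30856179-30856428, minus strand: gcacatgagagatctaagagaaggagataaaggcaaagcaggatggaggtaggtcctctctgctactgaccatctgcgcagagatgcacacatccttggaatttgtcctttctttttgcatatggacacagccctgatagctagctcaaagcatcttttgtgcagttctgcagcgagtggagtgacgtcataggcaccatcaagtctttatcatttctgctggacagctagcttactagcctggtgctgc
Hcar1, chr5:123880004-123880253, minus strand: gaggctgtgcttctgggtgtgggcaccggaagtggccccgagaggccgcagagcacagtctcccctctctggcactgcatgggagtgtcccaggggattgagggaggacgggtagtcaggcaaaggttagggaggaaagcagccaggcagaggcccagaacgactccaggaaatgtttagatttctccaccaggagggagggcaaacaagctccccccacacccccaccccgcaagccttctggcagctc
Slc16a1, chr3:104638414-104638663, plus strand: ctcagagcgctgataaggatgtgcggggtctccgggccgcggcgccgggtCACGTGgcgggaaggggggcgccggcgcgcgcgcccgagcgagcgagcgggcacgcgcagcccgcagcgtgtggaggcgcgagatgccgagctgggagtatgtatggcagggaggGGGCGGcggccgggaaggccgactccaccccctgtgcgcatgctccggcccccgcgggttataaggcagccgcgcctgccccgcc

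The motifs were searched on both strands: the TATA box TATAAA, the CCAAT box, the GC box GGGCGG, the nuclear receptor element AGGTCA, its direct repeat with 1 base between the copies and the E box CACGTG. Of 32536 promoter stretches of this length, 12.3% hold TATAAA, 33.8% CCAAT, 33% GGGCGG, 14% AGGTCA, 0.0338% the direct repeat and 6.04% CACGTG. The *Ffar2* stretch holds AGGTCA on the opposite strand at -175 to -170 and CACGTG at -102 to -97, counted back from the start. The *Slc16a1* stretch holds CACGTG at -200 to -195 and GGGCGG at -85 to -80. No searched motif is in the *Ffar3* or *Hcar1* stretch, and the *Ffar4* stretch, not printed, holds GGGCGG at -75 to -70. The stretch of *Slc5a8*, also not printed, holds GGGCGG on the opposite strand at -154 to -149, -145 to -140 and -18 to -13. The *Slc16a1* stretch has a GC content of 76.4% with 37 CpG, against 48% with 3 CpG for *Ffar3*, and the median GC content of all stretches is 52.4%. A match is a description of the letters and does not show that a factor binds there.

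The libraries held 2602189 to 3478539 counts each, so that 1 gene at 3 counts, the limit that a count of 0 allows, stood at 0.879 to 1.20 CPM (each library's counts scaled to a common total). Levels below are given in CPM after TMM scaling, as mean ± SD with n = 4 mice per genotype, and the test was passed where edgeR's quasi-likelihood test gave an adjusted p below 0.05. On the first principal component WT mouse 3 lay at 12.6, among the KIKO mice (4.04 to 24.0), and WT mouse 1 lay farthest from them at -38.6, with WT mice 2 and 4 at -18.4 and -8.43. WT mouse 1 also had the lowest share of mitochondrial counts (6.91%) and WT mouse 3 the highest (10.7%). Adipocyte markers were abundant in every mouse, with summed levels of 36631 to 46277 CPM (WT) and 43956 to 63422 CPM (KIKO) and *Cfd* and *Lpl* highest, and epididymal epithelium markers summed to at most 1.21 CPM, with 5 of 7 at no count.

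Of the 5 receptors, 4 were detected. *Ffar2* (ENSMUSG00000051314, GRCm38 chr7:30818348-30823775) had the highest level of all members. Its level in WT mice 1 to 4 was 88.8, 149, 180 and 168 CPM, and in KIKO mice 1 to 4 it was 161, 122, 127 and 146 CPM. The KIKO mice all lay within the WT range, which WT mouse 1 extended downward. The means were 146 ± 40.5 CPM (WT) and 139 ± 17.9 CPM (KIKO), a log2 fold change of -0.072 (SE 0.18, 95% interval -0.46 to 0.31, edgeR's adjusted p = 0.878). On the linear scale this interval runs from 0.728-fold to 1.24-fold.

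*Ffar3* (ENSMUSG00000019429, chr7:30854330-30856178), whose best-known sites are sympathetic neurons and enteroendocrine cells, had 0 counts in each of the 8 libraries. A count of 0 allows a level of up to 0.475 to 0.648 CPM per kilobase of transcript in these libraries. In the same libraries, *Ffar2* was at least 61.9-fold to at least 119-fold above that limit per kilobase. Both the limit and the fold rest on exon length, and how much of each transcript the reads cover is uncertain. Absence of *Ffar3* RNA below this limit could not be examined at this depth, and no difference between genotypes was measurable.

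*Ffar4* (ENSMUSG00000054200, chr19:38097071-38114263) was low, with 8 to 45 counts per mouse. In WT mice it stood at 2.54, 13.3, 5.69 and 10.4 CPM, and in KIKO mice at 9.57, 5.59, 14.6 and 7.32 CPM. High and low mice were found in both genotypes, and the highest mouse was 5.75-fold above the lowest, the widest range of any detected member. The means of 7.98 ± 4.80 and 9.27 ± 3.90 CPM gave a log2 fold change of 0.22 with a wide interval of -0.63 to 1.07 (SE 0.40, edgeR's adjusted p = 0.827). Without WT mouse 1 the value was -0.078 and without KIKO mouse 3 it was -0.080, so no direction can be given for *Ffar4*.

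*Hcar1* (ENSMUSG00000049241, chr5:123876736-123880020), the lactate receptor, was at 30.4, 73.3, 84.3 and 75.0 CPM in WT mice 1 to 4. In KIKO mice it was at 111, 83.5, 91.0 and 95.5 CPM. WT mouse 1 stood far below the other mice, and the genotypes overlapped through WT mouse 3, which was just above KIKO mouse 2. The means were 65.8 ± 24.1 CPM (WT) and 95.2 ± 11.4 CPM (KIKO), a log2 fold change of 0.53 (SE 0.23, 95% interval 0.06 to 1.01). *Hcar1* did not pass after adjustment over all genes (edgeR p = 0.0311, adjusted p = 0.254), and a 2-sided exact permutation test of the means gave p = 0.0571, where 0.0286 is the smallest p that 4 against 4 mice allow. Without WT mouse 1 the log2 fold change was 0.30 (edgeR's adjusted p = 0.386), and without WT mouse 3 it was 0.68 (adjusted p = 0.0948).

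*Hcar2* (ENSMUSG00000045502, chr5:123863570-123865499) lies beside *Hcar1* on the same strand with 11236 bases between them, and its transcript shares no stretch of 75 bases, the read length, with that of another gene. It was at 9.51, 17.0, 27.8 and 24.1 CPM in WT mice and at 36.3, 23.2, 23.3 and 30.5 CPM in KIKO mice. WT mice 1 and 2 were below every KIKO mouse, whereas WT mice 3 and 4 lay within the KIKO range. The means of 19.6 ± 8.08 and 28.3 ± 6.32 CPM gave a log2 fold change of 0.54 (SE 0.26, 95% interval -0.01 to 1.09), which did not pass (edgeR p = 0.0531, adjusted p = 0.317, and p = 0.171 in the exact permutation test). Without WT mouse 1 the value was 0.31 (edgeR's adjusted p = 0.580), and without WT mouse 3 it was 0.76 (adjusted p = 0.0952). With both of these mice left out, the values were 0.36 for *Hcar1* and 0.48 for *Hcar2* (edgeR's adjusted p = 0.225 and 0.313).

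Among the carriers, *Slc16a1* (ENSMUSG00000032902, chr3:104638668-104658462), which encodes MCT1, was the most abundant. It was at 94.2, 67.8, 51.2 and 54.9 CPM in WT and at 67.3, 72.7, 78.7 and 60.0 CPM in KIKO mice. Both the highest and the lowest mouse were WT, mice 1 and 3, and the KIKO mice lay between them. The means of 67.0 ± 19.4 and 69.7 ± 7.94 CPM gave a log2 fold change of 0.054 (SE 0.18, 95% interval -0.32 to 0.43, edgeR's adjusted p = 0.908), and the sign of so small a value turned when library totals alone were used for scaling (-0.025). The annotation places the transcripts *Gm43581* and *Gm43585* inside its introns on the same strand.

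*Slc16a7* (ENSMUSG00000020102, chr10:125219270-125389465), which encodes MCT2, was at 20.0, 20.3, 29.5 and 20.1 CPM in WT and at 23.4, 20.8, 15.5 and 20.2 CPM in KIKO mice. Apart from WT mouse 3 on the high side and KIKO mouse 3 on the low side, the mice were close together. The means of 22.5 ± 4.67 and 20.0 ± 3.28 CPM differed by a log2 fold change of -0.17 (SE 0.19, 95% interval -0.56 to 0.23, edgeR's adjusted p = 0.703). Without WT mouse 3 it was -0.0092, and with a correction for transcript length it was -0.0061. *Slc16a7* overlaps the annotated transcripts *Gm47862* and *Gm45604* on the opposite strand, and 106 of its 11903 stretches of 75 bases occur in *Gm47862*, so some of its counts are uncertain.

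*Slc5a8* (ENSMUSG00000020062, chr10:88885992-88929515) had 0 counts in each of the 8 libraries, which allows up to 0.165 to 0.225 CPM per kilobase, a limit that also rests on exon length. The sodium-coupled carrier was therefore not detectable in vWAT of either genotype at this depth.

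**Figure D1:**
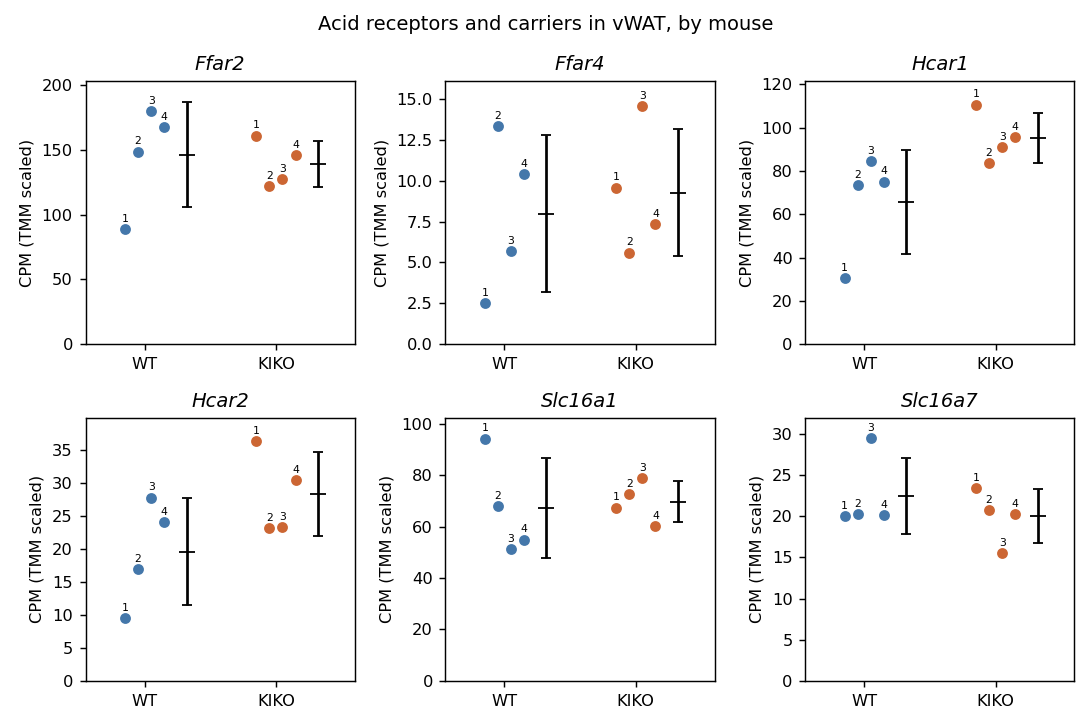
Level of each of the 6 detected members in CPM (TMM scaled, linear axis from 0) in each WT and KIKO mouse, where points are mice labelled by number and bars are mean ± SD with n = 4. WT mouse 1 is the lowest point for *Ffar2*, *Ffar4*, *Hcar1* and *Hcar2* and the highest for *Slc16a1*, and the genotypes overlap for every gene.

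Across the 11080 genes tested, 75 passed (0.677%, with 0.280% higher and 0.397% lower), and 0 of the 6 detected members did. At an unadjusted p under 0.05 in edgeR, 1 of the 6 members, *Hcar1*, was counted, against 16.2% of all genes. DESeq2 also passed 0 of the 5 members to which it gave an adjusted p, with 1 at an unadjusted p under 0.05. In all, 1598 genes had such a p in DESeq2. Limma-voom passed 0 of 6 members, with 2 at an unadjusted p under 0.05, against 1759 of all 11080 genes. No member had WT and KIKO levels that did not overlap, against 8.45% of all genes (3.89% higher and 4.56% lower). The log2 fold changes had a median of 0.14, with 4 above 0 and 2 below, where the median of all genes was -0.0071 and 49.0% of them lay above 0. A count of 0 among 6 members does not differ from so small a background share.

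**Figure D2:**
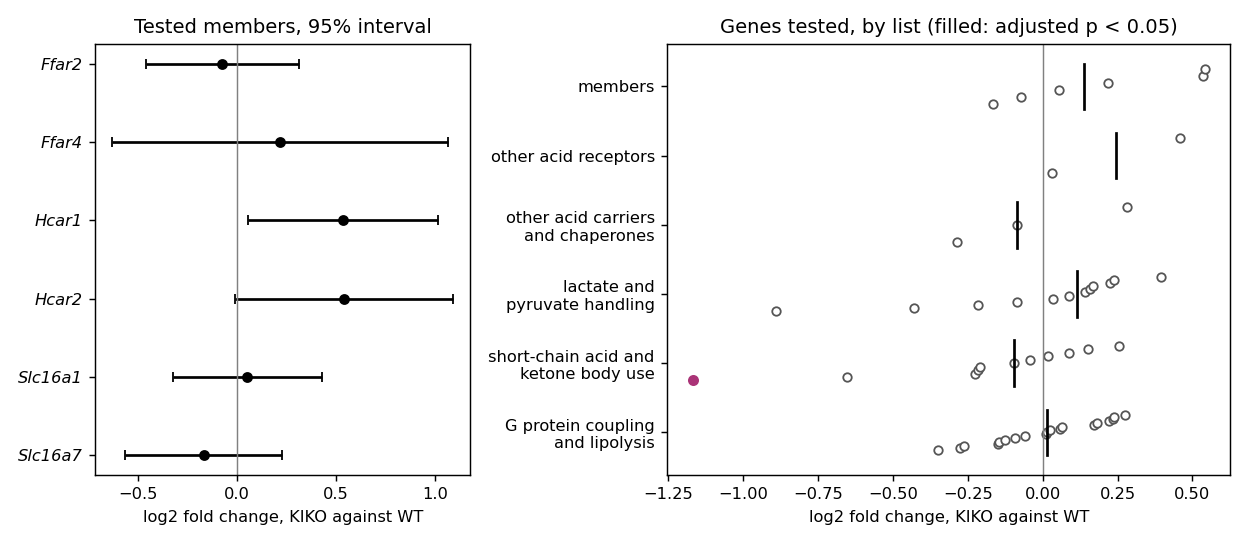
Left, log2 fold change of KIKO against WT mice for each tested member, with 95% intervals from edgeR. Right, log2 fold changes of the tested genes of each list, with black lines at the median of the list and a filled point for the gene that passed. The members span -0.17 to 0.54 with open points only, and the filled point is *Acss3* at -1.17.

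Levels of different genes were compared per kilobase of annotated exon. *Ffar2* was the highest, at 52.4 ± 14.5 CPM per kilobase in WT and 49.8 ± 6.42 in KIKO mice, followed by *Hcar1* at 20.0 ± 7.32 and 29.0 ± 3.47. *Slc16a1* was at 15.1 ± 4.39 and 15.7 ± 1.80, and *Hcar2* at 10.2 ± 4.19 and 14.7 ± 3.27 CPM per kilobase. *Ffar4* was at 5.70 ± 3.43 and 6.61 ± 2.78, and *Slc16a7* was the lowest detected member at 1.90 ± 0.394 and 1.69 ± 0.277 CPM per kilobase. Per kilobase and among the detected members, the tissue thus carried most transcript for the short-chain fatty acid receptor *Ffar2* and the lactate receptor *Hcar1*, and least for MCT2. *Ffar2* exceeded *Hcar1* in 8 of 8 mice, *Hcar1* exceeded *Slc16a1* in 7, *Hcar2* exceeded *Ffar4* in 7 and *Ffar4* exceeded *Slc16a7* in 8. *Slc16a1* and *Hcar2* could not be ordered, since *Slc16a1* was the higher in only 4 of 8 mice. The sources differ on whether libraries came from whole mRNA or from a digital mRNA-seq service, so that the share of each transcript that the reads cover is uncertain. By CPM alone, without division by length, *Slc16a7* moved above *Ffar4* and the other 4 members kept their rank.

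The coefficient of variation among WT mice was 27.7% for *Ffar2*, 60.2% for *Ffar4*, 36.6% for *Hcar1*, 41.3% for *Hcar2*, 29.0% for *Slc16a1* and 20.8% for *Slc16a7*. Among KIKO mice it was 12.9%, 42.1%, 12.0%, 22.3%, 11.4% and 16.4% in the same order, lower for each of the 6. This difference was not tested, and the share of all genes with lower variation in KIKO mice was not counted. It cannot be called particular to the members. Over all genes, WT mice also spread more widely on the first principal component (-38.6 to 12.6) than KIKO mice (4.04 to 24.0). WT mouse 1 was at an extreme of the 8 mice for 5 of the 6 members. It was the lowest of the 8 mice for all 4 detected receptors, with log2 deviations from the WT mean of -0.67 for *Ffar2*, -1.23 for *Ffar4*, -0.996 for *Hcar1* and -0.89 for *Hcar2*. By contrast it was the highest for *Slc16a1*, at 0.53 above the WT mean, and unremarkable for *Slc16a7* at -0.14. WT mouse 1 was the lowest mouse for 18.5% of all tested genes and the highest for 20.8%. Several summed levels also stood at an extreme in the same mouse. The sum of G protein coupling and lipolysis genes was the lowest of the 8, at 7596 CPM, where the other WT mice were at 8187 to 9684 and the KIKO mice at 8791 to 9021. The sum of lactate and pyruvate handling was also the lowest, at 1644 CPM against 1749 or more in every other mouse, and so was that of the neutrophil markers, at 10.1 CPM against 12.2 to 21.7 CPM in the KIKO mice. Highest of the 8 were the endothelial markers, at 664 CPM, and the other acid carriers and their chaperones, at 253 CPM. Adipocyte markers were mixed in WT mouse 1. Of the 8, *Plin1*, which encodes the coat protein of the lipid droplet, was the lowest of all 8 mice at 821 CPM, and *Lpl* (8537 CPM), *Lep* (228 CPM) and *Pck1* (728 CPM) were the lowest of the WT mice, whereas *Cfd* was the highest of the WT mice at 21582 CPM. Their sum, of which *Cfd* is the largest part, was 41832 CPM, and that of the macrophage markers was 1857 CPM, both within the range of the other WT mice. The part of any of these in the receptor levels was not tested, and the pattern in WT mouse 1 was described after the values were seen.

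**Figure D3:**
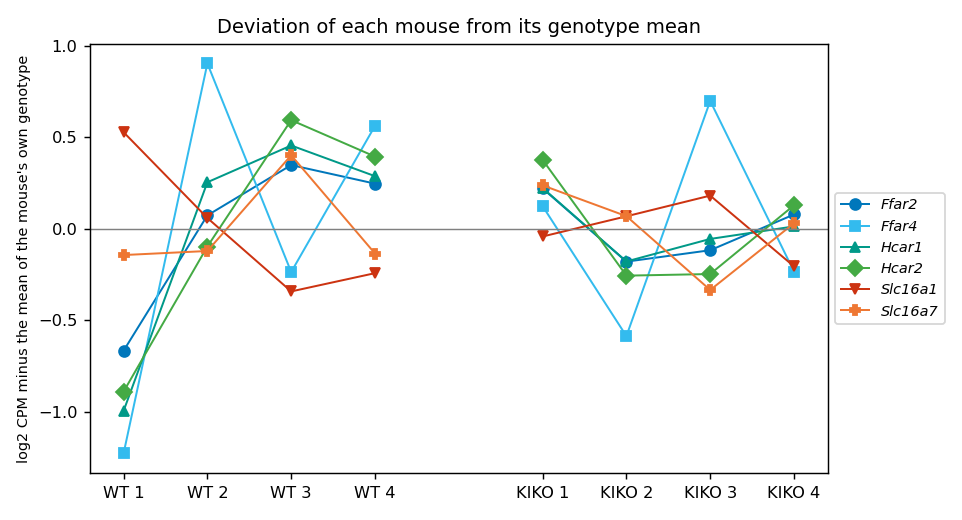
Deviation of each mouse from the mean of its own genotype, as log2 CPM (vertical axis) for the 8 mice (horizontal axis), with 1 line per detected member. WT mouse 1 lies at -0.67 to -1.23 for the 4 receptors and at 0.53 for *Slc16a1*.

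Ratios between members within a mouse do not depend on how libraries are scaled. All 15 pairs of detected members were examined after the levels had been seen, so their ratios are given as descriptions. *Hcar1* and *Hcar2* kept the steadiest ratio of the 15, with *Hcar1* at 3.04 to 4.32 counts per *Hcar2* count over all 8 mice. The mean ratio was 3.42 ± 0.607 in WT and 3.42 ± 0.404 in KIKO mice, although each of the genes varied over 3.63-fold and 3.82-fold. For both of these neighbouring genes WT mouse 1 was the lowest and KIKO mouse 1 the highest of the 8.

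Set against *Ffar2*, both hydroxycarboxylate receptors separated the genotypes. Both ratios share *Ffar2*, and *Hcar1* and *Hcar2* varied together, so they are not independent observations. The ratio of *Hcar1* to *Ffar2* counts was 0.343, 0.493, 0.468 and 0.447 in WT mice 1 to 4 and 0.686, 0.685, 0.715 and 0.655 in KIKO mice 1 to 4. Every KIKO mouse lay above every WT mouse, WT mouse 1 included, with means of 0.438 ± 0.0660 and 0.685 ± 0.0247, a 1.57-fold difference. *Hcar2* to *Ffar2* was at 0.107 to 0.154 (WT) and 0.183 to 0.225 (KIKO), with means of 0.130 ± 0.0228 and 0.202 ± 0.0190, a 1.56-fold difference. Of all tested genes, 1.78% had a ratio to *Ffar2* that was higher in each KIKO mouse than in each WT mouse. That share covers only this direction and this denominator, whereas 15 pairs were examined in either direction. It therefore does not measure how rare a separation is in such a search. *Hcar1* to *Slc16a7* also did not overlap, at up to 3.73 in WT and from 4.02 in KIKO mice, as 7.64% of all genes did, so that such a ratio is common. In the other 12 pairs the genotypes overlapped.

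**Figure D4:**
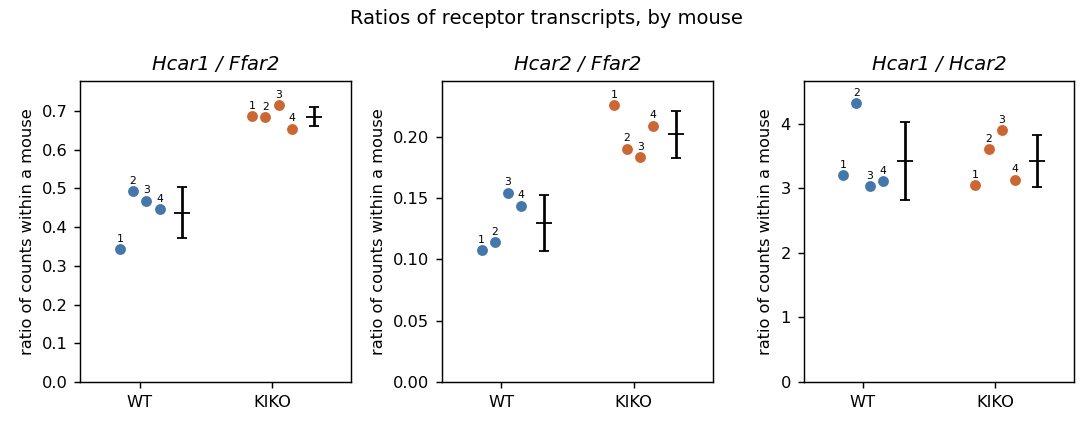
Ratio of raw counts of 2 receptors within each mouse (linear axis from 0), with mice as numbered points and bars at mean ± SD with n = 4. *Hcar1* to *Ffar2* and *Hcar2* to *Ffar2* do not overlap between genotypes (0.343 to 0.493 against 0.655 to 0.715, and 0.107 to 0.154 against 0.183 to 0.225), whereas *Hcar1* to *Hcar2* has a mean of 3.42 in both.

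The genes whose pattern over the 8 libraries was nearest to that of each member were found by the root mean square difference of centred log2 levels among 11079 genes, as a description only. For *Ffar2* they were *Pja1* (0.066) and *Zfp385a* (0.0995), and for *Ffar4* *Cd300ld* (0.23) and *Sbk1* (0.23). *Hcar1* was nearest to *Insig1* (0.14), which encodes a brake on sterol synthesis, and to *B430219N15Rik* (0.15), and *Hcar2* to *Lypd6b* (0.13) and *Cavin3* (0.13). *Slc16a1* was nearest to *Sec23ip* (0.069) and *Pitpnm1* (0.073), and *Slc16a7* to *Copz1* (0.069) and *Psmd13* (0.070). The members' own standard deviations over the 8 libraries ran from 0.23 for *Slc16a7* to 0.69 for *Ffar4*, so a small difference means less for a member that itself varied little.

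Related genes were counted in lists. Of 8 other receptors for organic acids, 2 had enough counts for the test and 0 passed, where *Sucnr1*, the succinate receptor, had a log2 fold change of 0.030 (edgeR's adjusted p = 0.965). *Olfr558* had one of 0.46 (SE 0.43, edgeR's adjusted p = 0.642) at 3.28 ± 1.72 CPM (WT) and 4.48 ± 2.22 CPM (KIKO). The receptors *Ffar1*, *Gpr84*, *Gpr35*, *Gpr132* and *Olfr78* had too few counts, and *Oxgr1* had none.

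Of 8 other acid carriers and their chaperones, 3 were tested and 0 passed. *Bsg*, which encodes the chaperone that takes MCT1 to the cell surface, was at 203 ± 16.0 CPM (WT) and 191 ± 17.6 CPM (KIKO) (log2 fold change -0.088, edgeR's adjusted p = 0.754). *Emb*, which encodes the chaperone of MCT2, had a log2 fold change of -0.29 (edgeR's adjusted p = 0.637) and *Slc16a6* one of 0.28 (adjusted p = 0.576). *Slc16a3*, the lactate exporter MCT4, was too low for the test.

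Of 13 genes of lactate and pyruvate handling, 12 were tested and 0 passed, with a median log2 fold change of 0.12. The smallest adjusted p values belonged to kinases that restrain pyruvate dehydrogenase. *Pdk2* had means of 147 ± 30.9 CPM (WT) and 109 ± 23.2 CPM (KIKO) (log2 fold change -0.43, SE 0.17, edgeR's adjusted p = 0.215). *Pdk4* had means of 6.38 ± 2.08 and 3.43 ± 1.88 CPM (log2 fold change -0.89, SE 0.40, edgeR's adjusted p = 0.280). The genotypes overlapped for both.

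Of 12 genes of short-chain acid and ketone body use, 11 were tested and 1 passed. *Acss3* (ENSMUSG00000035948, chr10:106933517-107123668), which encodes a mitochondrial acyl-CoA synthetase that activates short-chain acids such as propionate, fell in KIKO mice. Its level was 89.1, 65.1, 35.8 and 59.6 CPM in WT mice and 23.8, 32.4, 26.9 and 28.4 CPM in KIKO mice. Every KIKO mouse was below every WT mouse, with WT mouse 3 the nearest. The means of 62.4 ± 21.9 and 27.9 ± 3.58 CPM gave a log2 fold change of -1.17 (SE 0.22, edgeR's adjusted p = 0.0326). The call ended with an adjusted p of 0.0515 in limma-voom and of 0.122 in edgeR with the replicate number as a block. It also ended when any 1 of 6 mice was left out, at 0.103 and 0.106 (WT mice 2 and 4) and at 0.122, 0.0513, 0.0726 and 0.159 (KIKO mice 1 to 4). It held without WT mouse 1 (0.0396) or WT mouse 3 (0.00309), and in DESeq2 (3.75e-04).

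The genes on which the receptors act were counted last. Of 19 genes of G protein coupling and lipolysis, 19 were tested, and 0 passed in edgeR, with 0 at an unadjusted p under 0.05. The smallest adjusted p values were those of *Prkar2b*, a regulatory subunit of protein kinase A (log2 fold change -0.28, SE 0.14, adjusted p = 0.350), and *Gnas*, the stimulatory G protein subunit (log2 fold change -0.26, SE 0.14, adjusted p = 0.386). The median log2 fold change of the list was 0.015. Over the 5 lists, 1 gene passed.

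Cell type markers were set beside the receptors, since bulk RNA cannot tell fewer cells of a type from less RNA per cell. Of 8 adipocyte markers 0 passed, 4 had values above 0 and 4 below, and their sums overlapped. *Adipoq*, which encodes adiponectin, was nevertheless higher in every KIKO mouse (5868 to 6919 CPM) than in every WT mouse (3702 to 5364 CPM). Of all tested genes, 3.89% were higher in this way. By RT-qPCR the study reports the opposite direction, a lower *Adipoq* mRNA in vWAT of KIKO mice. In these counts *Adipoq* had a log2 fold change of 0.54 (SE 0.15, edgeR's adjusted p = 0.102), and *Cfd* had one of 0.71 (SE 0.21, adjusted p = 0.112). The log2 fold changes of *Adipoq* and *Cfd* were near or above those of *Hcar1* (0.53) and *Hcar2* (0.54). In the other direction, *Lpl* was at -0.27, and the median of the 8 adipocyte markers was 0.064. Of 10 macrophage markers, 1 passed, *Lyz2* (log2 fold change 0.95, edgeR's adjusted p = 0.0326), and 8 had values above 0. Among these 8, *Cd68* had a log2 fold change of 0.57 (edgeR's adjusted p = 0.0836) and *Adgre1* one of 0.60 (adjusted p = 0.204). The 2 below 0 were *C1qa* at -0.054 and *Mertk* at -0.97 (SE 0.26, edgeR's adjusted p = 0.0959). *Mertk* was at 252 ± 84.0 CPM (WT) and 129 ± 60.7 CPM (KIKO). The macrophage sum did not overlap between WT (1734 to 1964 CPM) and KIKO mice (1976 to 2441 CPM), with *Lyz2* and *Csf1r* highest, but without *Lyz2* the other 9 markers overlapped, at 1363 to 1631 CPM (WT) and 1398 to 1735 CPM (KIKO). *Hcar2* is also known from macrophages and neutrophils. Neutrophil markers, with *S100a8* and *S100a9* highest, summed to 10.1 to 25.1 CPM (WT) and 12.2 to 21.7 CPM (KIKO), with 1 of 8 tested, 0 passing and *Ly6g* at 0 counts. Lymphocyte markers, with *Ms4a1* and *Nkg7* highest, summed to 10.6 to 16.2 and 7.77 to 29.6 CPM (0 of 3 tested passed). Endothelial markers, with *Kdr* and *Pecam1* highest, had 6 of 6 values below 0, 0 passing, and sums of 496 to 664 and 311 to 567 CPM. Progenitor and fibroblast markers, with *Dcn* and *Col15a1* highest, had 0 of 6 passing and sums that did not overlap, at 2436 to 2657 and 3008 to 3516 CPM. Without *Dcn*, the other 5 summed to 372 to 539 CPM (WT) and 446 to 481 CPM (KIKO), which overlap, and *Pi16* had a log2 fold change of -0.36 (SE 0.15, edgeR's adjusted p = 0.260). Mesothelial markers, with *Upk3b* and *Lrrn4* highest, had 1 of 5 passing upward and sums of 230 to 337 and 242 to 479 CPM. Their part in the levels of *Hcar1*, *Hcar2* and the other members was not tested.

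Across genes, shorter transcripts had higher values in KIKO than in WT mice (Spearman's rho of the log2 fold change with exon length -0.312, over genes, which are not independent). The trend also differed between mice of 1 genotype. By mouse, rho of the centred log2 level with exon length was 0.279, 0.268, -0.102 and 0.120 in WT mice 1 to 4. In KIKO mice 1 to 4 it was -0.177, -0.167, -0.109 and -0.230, so WT mouse 3 stood near the KIKO mice. The cause was not tested. Among the members, exon lengths ran from 1401 bases for *Ffar4* to 11839 for *Slc16a7*. With a correction for length, the log2 fold changes of *Hcar1* and *Hcar2* were 0.50 and 0.45 (edgeR's adjusted p = 0.326 and 0.445). The members' values under every setting are drawn in the plot of log2 fold changes by setting.

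**Figure D5:**
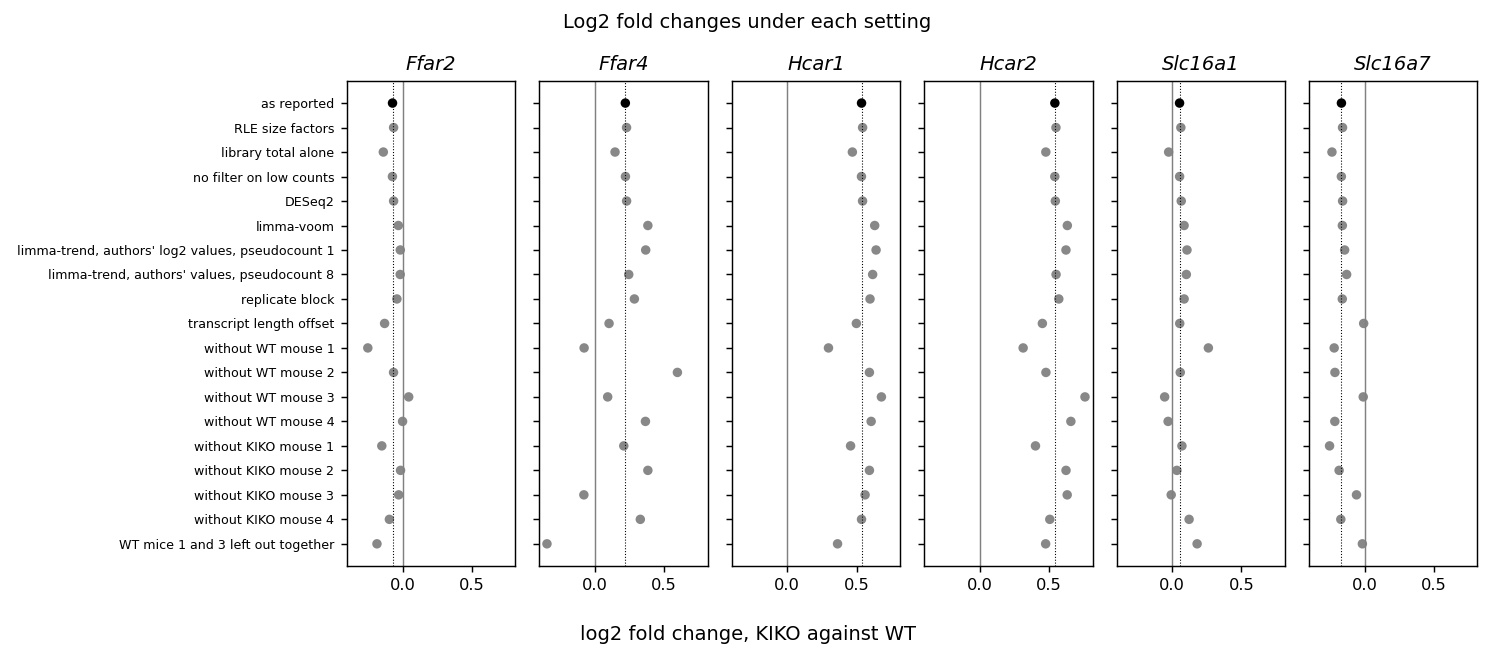
Log2 fold change of KIKO against WT mice for each detected member (panels) under each setting (rows), with the reported value in black and other settings in grey. *Hcar1* and *Hcar2* stay above 0 throughout, at 0.30 or more, whereas *Ffar2*, *Ffar4* and *Slc16a1* lie on both sides of 0 and *Slc16a7* reaches -0.0061.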

How the data were processed

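RNA-seq of vWAT from 4 WT and 4 KIKO mice was used, as raw counts per Ensembl gene that the authors deposited. A second deposited table, used only in alternatives, holds the authors' log2 of each scaled count with 1 added. Reads had been trimmed with Trimmomatic and aligned to GRCm38 with HISAT2, and DESeq2 is named too, per the labels and the study's methods, which add StringTie for the counts. The study's methods name a stranded TruSeq mRNA kit, and the sample labels a digital mRNA-seq service with single reads of 75 cycles. The release of the gene annotation is not given in the sources used here, and strand use in counting is not stated.

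Gene symbols, positions and exon lengths came from GENCODE M21 on GRCm38 (31011 of 31053 genes matched), and 12961 genes had no count. Library totals were 2602189 to 3478539 counts. Counts were tested in R 4.3.3 with edgeR 4.0.16 (TMM, filterByExpr by genotype, quasi-likelihood test, model of genotype alone), with Benjamini-Hochberg adjustment over the 11080 genes kept. Single levels were compared by a 2-sided exact permutation test over 70 assignments. Limits from 3 counts cover counting error only. The p-values measure the spread between mice, 1 library each. Alternatives used RLE size factors, library totals, no filter, DESeq2 1.42.0, limma 3.58.1 (voom, and trend with pseudocounts of 1 and 8), the replicate number as a block, a length offset (mgcv 1.9.3) and leaving out each mouse. Leaving out WT mice 1 and 3 together was added after the data were seen. Steps were tested on simulated data.

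The members and lists were chosen with earlier results of these data known. Genes named besides the members were, in each list, those that passed or else the 2 with the smallest adjusted p, the 2 highest markers of each cell type and the 2 genes of nearest pattern to each member. *Bsg*, *Slc16a3*, receptors without enough counts and the markers *Adipoq*, *Plin1*, *Lep*, *Pck1*, *Cd68*, *Adgre1*, *C1qa*, *Mertk*, *Pi16* and *Ly6g* were added after their values were seen. No pair of libraries was a duplicate. Some planned items are not reported here.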

Additional observations from a re-analysis of the deposited data

Results flagged for a closer look

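In 34 groups of 4 mice, covering 17 genes, a mouse that stood apart from the rest of its genotype was looked for with Dixon's test at 95%, which flags about 1 in 20 groups by chance, and 4 were found. *Slc16a7* was at 29.5 CPM in WT mouse 3, against 20.0 to 20.3 CPM in the other WT mice. The succinate receptor *Sucnr1* was at 12.4 CPM in the same mouse, against 22.5 to 23.9 CPM. *Pdk2* was at 193 CPM in WT mouse 1, against 127 to 137 CPM in the other WT mice. It was also at 144 CPM in KIKO mouse 2, against 94.1 to 103 CPM in the other KIKO mice. The cause was not tested for any of the 4.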

How the results depend on the processing

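*Hcar1*, *Hcar2* and *Slc16a7* kept their direction under the 17 settings fixed at the start, and no member passed under any of them. Leaving out 1 mouse each gave log2 fold changes of 0.30 to 0.68 for *Hcar1*, 0.31 to 0.76 for *Hcar2*, -0.25 to -0.0092 for *Slc16a7*, -0.25 to 0.045 for *Ffar2*, -0.080 to 0.59 for *Ffar4* and -0.054 to 0.26 for *Slc16a1*. Over those settings edgeR's and the other tools' adjusted p ran from 0.0896 to 0.446 for *Hcar1* and from 0.0952 to 0.580 for *Hcar2*. The sign turned for *Ffar2* without WT mouse 3 (0.045) or WT mouse 4 (0.00053). It turned for *Ffar4* without WT mouse 1 (-0.078) or KIKO mouse 3 (-0.080) and without both WT mice 1 and 3 (-0.35). It turned for *Slc16a1* with library totals alone (-0.025) and when WT mouse 3 (-0.054) or 4 (-0.029) or KIKO mouse 3 (-0.0065) was left out. The cause of these turns was not tested, and the values lie within their standard errors of 0 apart from that of *Ffar4* without both mice (SE 0.32).

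The number of genes that passed, 75, was 382 with no filter, 259 in DESeq2 (134 higher and 125 lower), 40 with limma-voom (23 and 17), 45 by limma-trend at pseudocount 1 (25 and 20), 37 with the length offset (16 and 21), and 187 without WT mice 1 and 3. Leaving out 1 mouse gave 0 (when WT mouse 2 or 4 or KIKO mouse 4 was left out) to 654 (without WT mouse 3), with 1328 to 2581 at an unadjusted p under 0.05. With library totals alone it was 67, with 18 higher and 49 lower, against 31 and 44. Of the related genes, 1 passed, and 2 did with no filter, in DESeq2 and without both mice, 0 in limma-voom, and 0 to 2 when 1 mouse was left out. By CPM alone 4 of 6 members kept their rank. With the replicate number as a block, 0 genes passed in edgeR (1427 at an unadjusted p under 0.05) and 0 related genes. Same-numbered WT and KIKO mice deviated with correlations of -0.152, -0.133, -0.113 and 0.0285. These values cannot tell whether such mice shared a litter or a batch. The labels give no pairing beyond the number, and none was used in the reported test. Under the block *Hcar1* was at 0.60 (edgeR's adjusted p = 0.354). Depth limits *Ffar4*, with 8 to 45 counts per mouse, and leaves *Ffar3* and *Slc5a8* unmeasured below their limits.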
